A study of Mus musculus with 12 samples.

Results

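ATAC-seq was used to ask how loss of BAF60a bears on chromatin accessibility in 2 fat depots of the mouse, and 9 genes of glucose uptake and glycolytic entry are described here. BAF60a is the Smarcd1 gene product and part of the SWI/SNF remodelers that move nucleosomes. In ATAC-seq a transposase tags DNA that nucleosomes leave bare, and more reads at a site mean more accessible chromatin. The genes were Slc2a1, Hk1, Hk2, Pfkl, Pfkm, Pfkp, Pfkfb2, Pfkfb3 and Pfkfb4. Their members are all peaks, that is regions of open chromatin, to which the deposited tables assign one of these 9 symbols among the 17915 symbols in all. This gave 62 of 58558 peaks in brown fat (BAT) and 41 of 39558 peaks in inguinal fat (iWAT).

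All mice carried floxed BAF60a alleles on a C57BL/6 background. The flox mice had no other change, and the AKO mice also carried Adiponectin-Cre, which is active in adipocytes, so that the other cells of the tissue keep the gene. BAT came from 3 flox and 3 AKO mice with 1 mouse a sample. The age and housing temperature of these mice are not given in the sources used here. iWAT came from mice of 6 to 8 months that were kept at 10 °C for 7 days after stepwise cooling. For iWAT the tissue of 6 mice was pooled for each genotype and 3 aliquots of the pool were measured, so that the iWAT p-values cover the spread between aliquots and not between mice. Values are normalized reads, which are read counts scaled by a size factor for each sample. BAT and iWAT were normalized apart, and levels are therefore compared within 1 tissue only.

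Glucose enters cells through carriers, of which GLUT1, encoded by Slc2a1, is the one for basal uptake. Hexokinases trap it as glucose 6-phosphate, and phosphofructokinase 1 commits it to glycolysis. The PFKFB enzymes make and break fructose 2,6-bisphosphate, the strongest activator of phosphofructokinase 1 in animal cells. Brown fat takes up much glucose when it is activated, and much of it passes through Hk2.

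The sequences below are those on which the account turns. They are the central 300 bases of 7 peaks, read 5′ to 3′ on the plus strand of mm10 (GRCm38). Capitals mark matches to the E-box CACGTG, to the hypoxia response core ACGTG and to a PPAR element, which is a direct repeat of AGGTCA with 1 base between the copies and at most 2 mismatches. A window with no capitals holds no match to these or to the palindrome bound by EBF factors (TCCC and GGGA with 2 bases between). The first 3 are the Pfkfb3 peaks in BAT with the smallest p-values, the next 2 are Pfkfb3 peaks with a PPAR element and with 2 E-boxes, and the last 2 are an intronic Hk2 peak with an E-box and the Hk2 peak in iWAT with the smallest p.
Pfkfb3 downstream peak, chr2:11469708-11470007: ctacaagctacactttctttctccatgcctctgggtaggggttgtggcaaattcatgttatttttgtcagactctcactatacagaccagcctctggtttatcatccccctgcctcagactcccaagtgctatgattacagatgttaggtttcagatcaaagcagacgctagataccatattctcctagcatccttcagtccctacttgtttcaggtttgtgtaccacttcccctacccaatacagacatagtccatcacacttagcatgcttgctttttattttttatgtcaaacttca
Pfkfb3 exon peak, chr2:11484629-11484928: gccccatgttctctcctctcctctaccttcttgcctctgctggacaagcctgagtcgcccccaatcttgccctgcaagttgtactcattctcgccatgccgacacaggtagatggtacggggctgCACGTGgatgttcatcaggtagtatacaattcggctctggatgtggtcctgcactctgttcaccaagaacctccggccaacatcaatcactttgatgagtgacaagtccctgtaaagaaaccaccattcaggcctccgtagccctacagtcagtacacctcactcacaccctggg
Pfkfb3 intron peak, chr2:11515905-11516204: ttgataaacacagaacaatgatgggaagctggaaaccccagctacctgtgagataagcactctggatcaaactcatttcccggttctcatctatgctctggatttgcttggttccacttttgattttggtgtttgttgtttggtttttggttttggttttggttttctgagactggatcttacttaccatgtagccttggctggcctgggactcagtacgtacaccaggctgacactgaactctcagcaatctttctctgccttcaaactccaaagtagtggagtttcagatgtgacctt
Pfkfb3 intron peak with a PPAR element, chr2:11521796-11522095: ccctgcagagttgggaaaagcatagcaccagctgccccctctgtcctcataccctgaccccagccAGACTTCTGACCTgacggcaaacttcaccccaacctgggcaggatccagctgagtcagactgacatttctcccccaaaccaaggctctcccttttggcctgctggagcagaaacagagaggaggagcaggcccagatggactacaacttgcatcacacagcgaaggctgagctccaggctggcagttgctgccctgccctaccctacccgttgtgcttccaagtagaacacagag
Pfkfb3 intron peak with E-boxes, chr2:11535259-11535558: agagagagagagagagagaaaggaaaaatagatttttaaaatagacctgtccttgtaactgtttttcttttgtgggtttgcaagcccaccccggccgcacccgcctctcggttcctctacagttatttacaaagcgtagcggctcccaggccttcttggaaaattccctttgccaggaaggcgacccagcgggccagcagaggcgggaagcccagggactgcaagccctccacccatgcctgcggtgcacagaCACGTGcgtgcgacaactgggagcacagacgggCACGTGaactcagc
Hk2 intron peak, chr6:82766760-82767059: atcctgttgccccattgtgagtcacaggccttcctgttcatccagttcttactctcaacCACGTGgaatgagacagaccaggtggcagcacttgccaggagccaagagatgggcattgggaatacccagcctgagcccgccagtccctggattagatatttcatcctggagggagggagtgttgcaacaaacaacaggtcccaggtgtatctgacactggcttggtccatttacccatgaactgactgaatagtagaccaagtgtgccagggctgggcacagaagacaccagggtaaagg
Hk2 upstream peak in iWAT, chr6:82797346-82797645: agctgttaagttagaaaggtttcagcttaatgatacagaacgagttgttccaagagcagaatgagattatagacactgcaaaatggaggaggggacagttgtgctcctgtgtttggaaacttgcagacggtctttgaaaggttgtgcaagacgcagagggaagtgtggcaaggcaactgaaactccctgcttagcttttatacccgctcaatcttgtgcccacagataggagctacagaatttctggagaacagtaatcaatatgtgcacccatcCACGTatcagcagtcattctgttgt

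In the libraries as a whole, reads in peaks ranged from 10115267 to 27500738 in flox and from 6336670 to 13821838 in AKO samples of BAT, and from 4066720 to 6691161 in iWAT. The targeted gene was checked first. Smarcd1 had 2 peaks in BAT, and the one inside the gene over an exon (chr15:99704113-99704521) held 136, 201 and 185 normalized reads in flox and 23.7, 57.9 and 26.9 in AKO (log2 fold change -2.98 ± 0.27 (SE), unadjusted p = 9.17e-06, limma adjusted p = 0.269). The peak over its start site held 485, 456 and 369 normalized reads in flox and 412, 417 and 497 in AKO. In iWAT the table has the start site peak alone, with 249, 188 and 211 normalized reads in flox and 233, 229 and 229.9 in AKO, and so gives no check of the deletion. The first principal component (PC1) of the BAT samples took 55.6% of the variance and ran from flox replicate 1 to AKO replicate 2, and the BAT fit has it as a covariate. Its scores were -98.2, -41.8 and 14.6 in flox and -0.617, 112 and 13.5 in AKO. The 2 samples at its ends had the most and the fewest reads in peaks. The covariate thus shares part of its variation with genotype and with depth, and the BAT fold changes depend on it. In BAT the adipocyte markers (6 genes) had 18 of 43 peaks lower and 3 higher in AKO without overlap, with summed reads of 19561 to 21174 in flox and 13389 to 18239 in AKO, and the brown adipocyte markers (5 genes) had 28 of 68 lower and 0 higher, with sums of 19455 to 23135 and 13091 to 14299.5. Over all BAT peaks 8.84% were lower and 8.77% higher without overlap. Endothelial sums were 2112 to 2398 and 2101 to 2553, and fibroblast sums were 1349 to 1454 and 1385 to 1472. Of 4 immune genes Ptprc, Csf1r and Cd68 had no BAT peak, and Adgre1 held 112 to 188 and 126 to 174, while of 4 skeletal muscle genes Ckm and Myod1 had none and the others summed to 245 to 273 and 243 to 363. In iWAT the sums were 2736 to 3513 in flox and 2821 to 3089 in AKO for adipocyte, 1118 to 1329.85 and 1219 to 1344 for brown adipocyte, and 1025 to 1131 and 1048 to 1181 for fibroblast markers. The endothelial sum was 655 to 694 in flox and 527 to 603 in AKO with no Tie1 peak, the immune sum was 268 to 327 and 175 to 239.8 with no Cd68 peak, and the muscle sum, over 1 of 4 genes (Acta1), was 112 to 154 and 127 to 152. The labelled tissue thus had its defining adipocyte markers in both tables.

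Lower accessibility in BAT of AKO mice was found mostly at Pfkfb3, the isoform of the highest kinase activity. Of its 17 peaks, 10 were lower in every AKO mouse than in every flox mouse and 0 were higher, where 8.84% of all BAT peaks were lower without overlap and 8.77% higher. By limma, 6 of the 17 were lower at an unadjusted p under 0.05, where 5.59% of all BAT peaks were. Over all 62 member peaks, 15 were lower and 3 higher without overlap, so that 5 of the 45 peaks of the other 8 genes were lower and 3 higher. At an adjusted p under 0.1 limma called none of the 62, as it called none of 58558 (0%). DESeq2 and edgeR, which use read counts, and limma-trend, which uses the same values as limma, called 3 member peaks, each of Pfkfb3 and each lower. DESeq2 called these where it called 0.298% of tested BAT peaks lower, edgeR where it called 0.108% and limma-trend where it called 0.0751%. DESeq2 without the PC1 covariate also called 3 Pfkfb3 peaks lower, with 0.517% of all peaks called lower, and here the exon peak gave way to an intron peak (chr2:11512357-11513834). The median log2 fold change of the 62 peaks was -0.06, and that of all BAT peaks was 0.01. The median of the 62 was -0.02 without AKO replicate 1, -0.12 without flox replicate 3 and -0.10 under cyclic loess. The plot of fold changes by gene shows that the filled points below 0 in BAT belong to Pfkfb3 and Hk2.

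**Figure D1:**
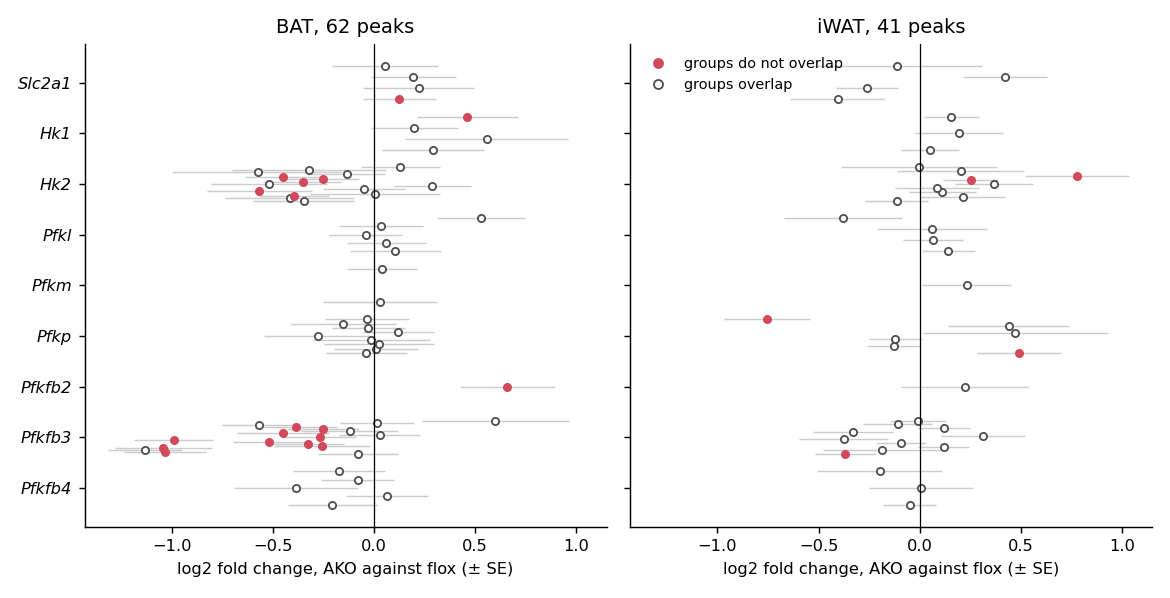
Log2 fold change of AKO against flox (x axis, bars are SE from limma) for each peak of the 9 genes (rows) in BAT and iWAT. Filled points are peaks whose 3 flox and 3 AKO samples do not overlap. In BAT, 10 of the 17 Pfkfb3 peaks are filled and lie below 0, and in iWAT 1 of 10 is.

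The largest Pfkfb3 peak with a call lay just past the end of the gene, at chr2:11468694-11471021, which is 412 bp downstream of it. It held 1001, 976 and 978 normalized reads in flox and 453, 637 and 535 in AKO. The 2 groups were far apart, and the mean ratio of AKO to flox was 0.55 (log2 fold change -1.03 ± 0.20 (SE), unadjusted p = 0.00134, limma adjusted p = 0.417). The adjusted p was 1.09e-05 by DESeq2, 0.0144 by edgeR and 0.0154 by limma-trend. Its central window, printed first above, holds none of the motifs searched.

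An intronic peak, at chr2:11515465-11516644 and 13953 bp upstream of the start site that most transcripts share, held 502, 549 and 532 normalized reads in flox and 245, 243 and 296 in AKO. They did not overlap, with an AKO to flox ratio of 0.50 (log2 fold change -0.99 ± 0.20 (SE), unadjusted p = 0.00142, limma adjusted p = 0.417). Adjusted p-values were 9.97e-04 by DESeq2, 0.0283 by edgeR and 0.0524 by limma-trend. This site had no peak in the iWAT table.

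A narrow peak over a coding exon (chr2:11484587-11484970), with an E-box in its window, held 139, 175 and 216 normalized reads in flox and 92.8, 179.6 and 102 in AKO. Here the groups overlap, since AKO replicate 2 was higher than 2 of the flox samples. With PC1 in the fit its difference was large (log2 fold change -1.13 ± 0.18 (SE), unadjusted p = 4.07e-04, limma adjusted p = 0.417), and without PC1 it was -0.54 with an unadjusted p of 0.095. The adjusted p was 0.0185 by DESeq2, 0.0994 by edgeR and 0.0992 by limma-trend, and 0.474 by DESeq2 without PC1.

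The other 3 of the 6 Pfkfb3 peaks were intronic. The peak at chr2:11490072-11490188 was small, with 56.4, 70.9 and 106 normalized reads in flox and 50.5, 56 and 40.3 in AKO (log2 fold change -1.04 ± 0.24 (SE), unadjusted p = 0.00331, limma adjusted p = 0.436), and without PC1 the fold change was -0.62 with an unadjusted p of 0.0417. The peak at chr2:11512357-11513834 held 934, 947 and 823 normalized reads in flox and 611, 465 and 564 in AKO and its groups were well apart (log2 fold change -0.52 ± 0.18 (SE), unadjusted p = 0.0227, limma adjusted p = 0.504). The peak at chr2:11544909-11545661 held 118, 163 and 175 normalized reads in flox and 118, 199 and 124 in AKO, which overlap, and its difference depends on the PC1 term (log2 fold change -0.57 ± 0.18 (SE), unadjusted p = 0.0177, limma adjusted p = 0.489), since without that term it was -0.07.

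Pfkfb3 has start sites about 52 kb apart, with a peak over each. The peak over the start site shared by 8 transcripts (chr2:11500749-11503498) was the highest of the gene and held 2205, 2262 and 1846 normalized reads in flox and 1589, 1321 and 1515 in AKO. All AKO values were below all flox values, with a ratio of 0.70, and limma did not pass (log2 fold change -0.32 ± 0.18 (SE), unadjusted p = 0.112, limma adjusted p = 0.632). Without PC1 its log2 fold change was -0.51, with an unadjusted p of 0.0224 and a limma adjusted p of 0.37. The peak over the upstream start site (chr2:11552536-11554138), named here after its values were seen, held 666, 772 and 693 normalized reads in flox and 704, 717 and 751 in AKO, and these groups overlap (log2 fold change 0.01 ± 0.18 (SE), unadjusted p = 0.937, limma adjusted p = 0.986). Taking each peak as a ratio to this upstream peak within a sample removes the scaling between samples, a measure also chosen after the values were seen. The ratio of the shared start site to it was 3.31, 2.93 and 2.66 in flox and 2.26, 1.84 and 2.02 in AKO. For the downstream peak the ratio was 1.50, 1.26 and 1.41 in flox and 0.643, 0.889 and 0.713 in AKO, and for the intron peak at 11515465 it was 0.753, 0.711 and 0.767 against 0.348, 0.340 and 0.395. For the exon peak at 11484587 it was 0.209, 0.227 and 0.312 against 0.132, 0.251 and 0.135, which overlap. Of the 16 ratios in BAT, 10 were lower in AKO without overlap, 0 were higher and 6 overlapped, and these are given as a description with no test, since the peak they are divided by was picked for its like values in both genotypes. In iWAT all 9 ratios overlapped, and the ratio of the shared to the upstream start site was 2.53, 2.56 and 3.04 in flox and 2.77, 2.38 and 2.50 in AKO.

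The remaining BAT peaks of Pfkfb3 include 5 intronic ones that were lower without overlap and above an unadjusted p of 0.05. Of these, the peak with the PPAR element (chr2:11521670-11522220) held 907, 750.0 and 788 normalized reads in flox and 643, 506 and 616 in AKO. The peak with 2 E-boxes (chr2:11534830-11535986) held 1146, 995 and 940.4 normalized reads in flox and 789.7, 554 and 770.4 in AKO. Both are among the higher peaks of the gene and both have groups that stand apart. The peaks at 11523706, 11530172, 11464659 and 11568516 had groups that overlap, and their log2 fold changes ran from -0.12 to 0.60. E-boxes were in the window of 3 of 17 Pfkfb3 peaks and of 7 of 62 member peaks, against 5.77% of all BAT peaks, and the hypoxia core, which includes every E-box, was in 12 of 62 against 17.3%. A PPAR element was in 3 of 62 against 6.41%, and the EBF palindrome was in 1 of 62 against 2.40%.

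Summed over its 17 peaks, Pfkfb3 held 9394, 9411 and 8660.3 normalized reads in flox and 6869.9, 6252 and 6676 in AKO. The means were 9155 ± 428 in flox and 6599 ± 316 in AKO (mean ± SD, n = 3 each), a ratio of 0.72 (log2 fold change -0.38 ± 0.11 (SE), unadjusted p = 0.0101, limma adjusted p = 0.433). DESeq2 gave an adjusted p of 0.0302, with 0.489% of genes called lower, and 0.00132 without PC1, with 0.935% called lower. edgeR (0.172) and limma-trend (0.22) did not pass. Limma called 1 gene in BAT by summed reads (0.00584%) and no member. The lower sum of Pfkfb3 went with lower sums of the brown adipocyte markers given above, and the part of that in the result was not tested. In whole tissue, a smaller share of brown adipocytes and less access per adipocyte cannot be told apart. The count of 10 peaks without overlap was 11 without flox replicate 1, which had the most reads, and 11 without AKO replicate 2, which had the fewest. Leaving out a sample can only keep or raise this count, so these values do not test it.

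**Figure D2:**
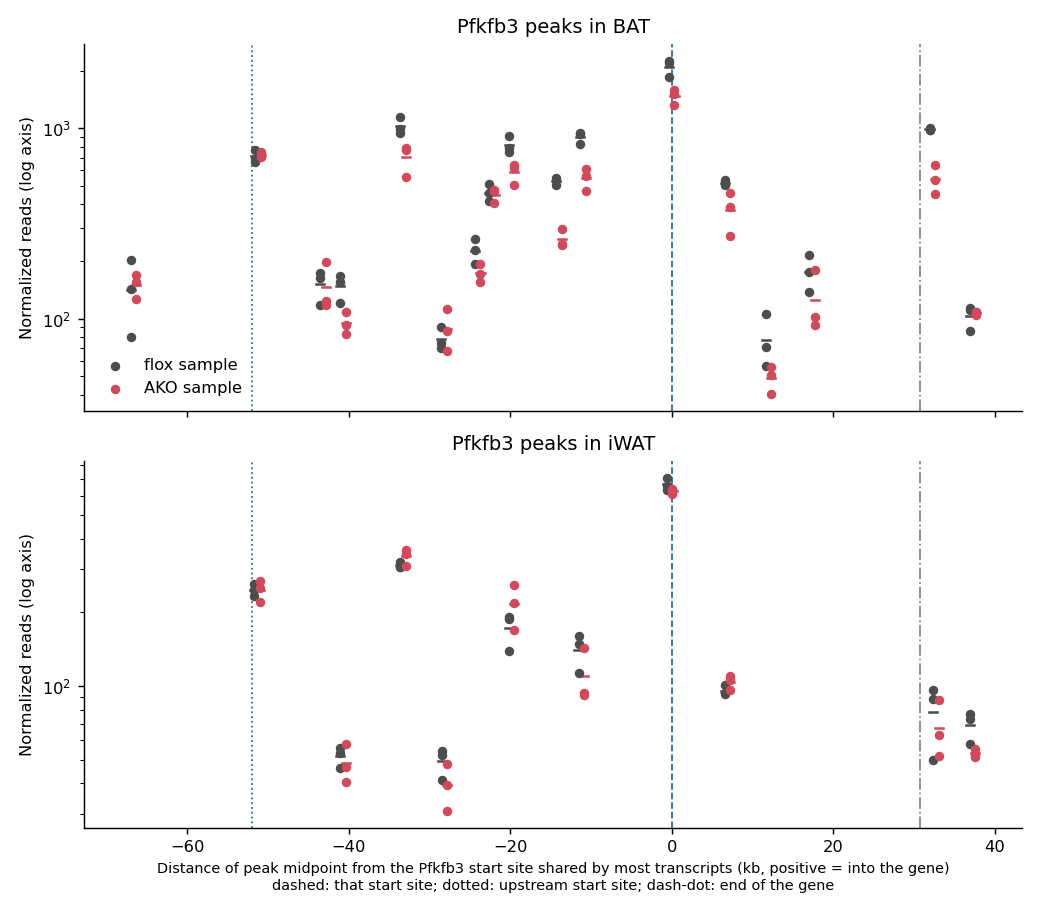
Normalized reads (log axis) of each Pfkfb3 peak in every BAT and iWAT sample, placed by the distance of its midpoint from the start site shared by 8 transcripts (kb). Points are samples, short lines are means of n = 3, and at the upstream start site, marked by the dotted line, the 2 genotypes overlap in both tissues.

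In iWAT the 10 Pfkfb3 peaks showed little difference. One of 10 was lower without overlap, where 10.3% of iWAT peaks were, and 1 was lower at an unadjusted p under 0.05, where 7.42% were. That was the peak past the gene's end (chr2:11464661-11465112), with 57.7, 73.4 and 76.6 normalized reads in flox and 55.3, 52.5 and 51.3 in AKO (log2 fold change -0.37 ± 0.15 (SE), unadjusted p = 0.0432, limma adjusted p = 0.315). The counterpart of the downstream BAT peak (chr2:11469177-11469702) held 96.2, 50 and 88.7 normalized reads in flox and 51.9, 87.9 and 63.1 in AKO, which overlap. The shared start site peak (chr2:11501283-11503463) held 660.1, 633 and 711 normalized reads in flox and 611, 639 and 629 in AKO, which also overlap (log2 fold change -0.09 ± 0.12 (SE), unadjusted p = 0.485, limma adjusted p = 0.77). Summed reads were 1883 ± 109 in flox and 1849 ± 51.5 in AKO (mean ± SD, n = 3 each) (log2 fold change -0.03 ± 0.08 (SE), unadjusted p = 0.77, limma adjusted p = 0.91). The difference of Pfkfb3 between the tissues was not tested. The iWAT samples are aliquots of 1 pool for each genotype from cold-acclimated mice, while the BAT samples are single mice.

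Hk2, the main hexokinase of insulin-sensitive tissue, had lower summed reads in AKO than in flox in BAT and higher ones in iWAT. In BAT its 15 peaks summed to 4245, 4469.9 and 4234 normalized reads in flox and 3499, 3849 and 3941 in AKO, with every AKO mouse below every flox mouse as in 8.43% of genes (log2 fold change -0.23 ± 0.12 (SE), unadjusted p = 0.103, limma adjusted p = 0.584), and no tool called it. That fold change was -0.13 without AKO replicate 1. It was also -0.13 with a replicate block, a term for replicate number, beside PC1, and -0.20 with the block and no PC1. In iWAT its 9 peaks summed to 831, 825 and 807 normalized reads in flox and 922, 979.6 and 988 in AKO, with every AKO aliquot above every flox aliquot as in 10.6% of genes (log2 fold change 0.23 ± 0.08 (SE), unadjusted p = 0.0208, limma adjusted p = 0.258). DESeq2 called it higher in iWAT (adjusted p = 0.0779, 1.09% of genes called higher), as did edgeR (0.0374, 2.92%) and limma-trend (0.0436, 2.62%), while limma called no gene in iWAT (0%). It was the only one of the 9 genes that any of these called in iWAT. The higher Hk2 sum went with lower endothelial and immune marker sums in AKO, whose part in it was not tested.

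In BAT, 5 of the 15 Hk2 peaks were lower without overlap and 0 higher, where 8.84% of all BAT peaks were lower and 8.77% higher, and none had an unadjusted p under 0.05. The start site peak (chr6:82772886-82774803) held 1274, 1284 and 1043 normalized reads in flox and 948, 856 and 1074 in AKO, which overlap (log2 fold change -0.13 ± 0.19 (SE), unadjusted p = 0.503, limma adjusted p = 0.856). The intron peak with an E-box printed above (chr6:82766637-82767182) held 479, 484 and 481 normalized reads in flox and 389.7, 334 and 409 in AKO, which do not overlap. In iWAT 2 of the 9 Hk2 peaks were higher without overlap and 0 lower, where 10.6% of iWAT peaks were higher. The start site peak (chr6:82772910-82774803) held 448, 485 and 414 normalized reads in flox and 493, 534 and 577 in AKO, with every AKO aliquot above (log2 fold change 0.25 ± 0.14 (SE), unadjusted p = 0.103, limma adjusted p = 0.427). The upstream peak printed last (chr6:82797343-82797648), 23041 bp before the start site, held 25.7, 17.8 and 35.3 normalized reads in flox and 54.2, 38.8 and 40.6 in AKO (log2 fold change 0.78 ± 0.26 (SE), unadjusted p = 0.0181, limma adjusted p = 0.235). The intron peak at chr6:82766705-82767154, which overlaps the antisense gene Gm17034 and the BAT peak with an E-box, held 74.1, 51.1 and 68 normalized reads in flox and 83, 97 and 69.5 in AKO, which overlap (log2 fold change 0.37 ± 0.19 (SE), unadjusted p = 0.098, limma adjusted p = 0.421).

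**Figure D3:**
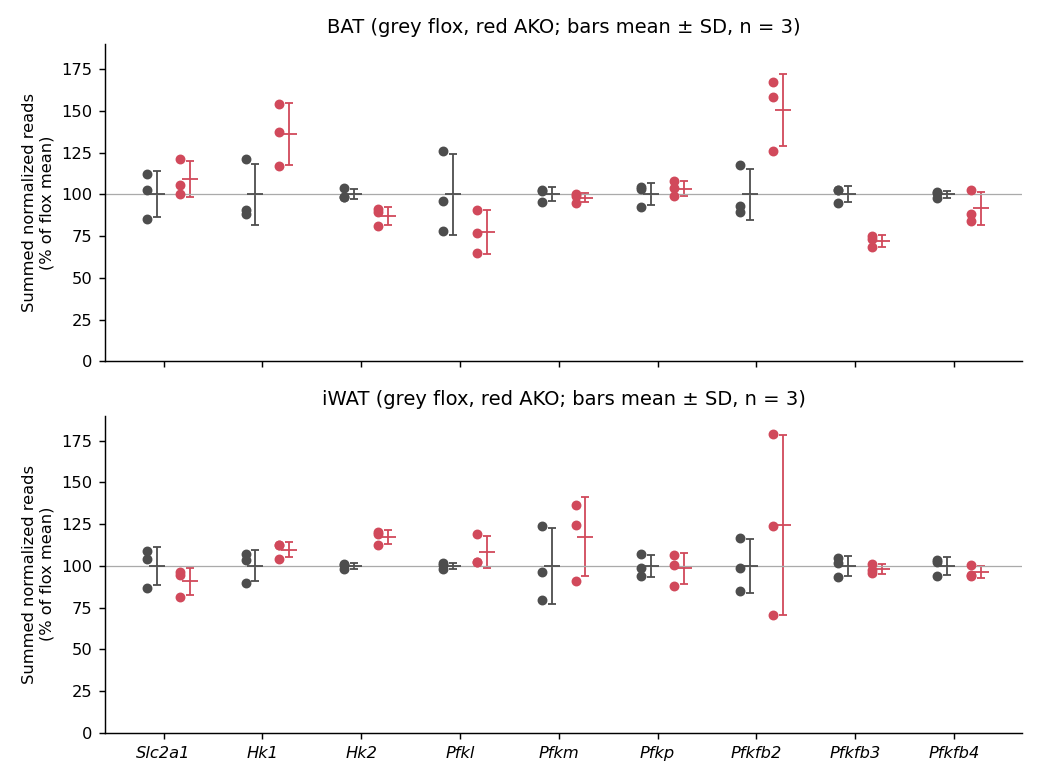
Summed normalized reads of each gene's peaks in every sample as a percentage of the flox mean of that tissue (y axis from 0), with the mean ± SD of n = 3 beside the points. Pfkfb3 in BAT lay at 72.1% ± 3.45 of flox, and Hk2 lay at 87.2% ± 5.41 in BAT and 117% ± 4.37 in iWAT.

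Hk1, the ubiquitous hexokinase, had positive log2 fold changes at all 4 BAT peaks and all 3 iWAT peaks. Its start site peak in BAT (chr10:62339901-62340724), which overlaps the antisense gene Hk1os, held 362, 477 and 367 normalized reads in flox and 478, 491 and 639.9 in AKO. The lowest AKO value was just above the highest flox value (log2 fold change 0.46 ± 0.25 (SE), unadjusted p = 0.105, limma adjusted p = 0.622). The fold change was 0.26 without AKO replicate 3 and 0.81 with a replicate block beside PC1. With the block and no PC1 it was 0.41, as it was with neither. In iWAT the start site peak (chr10:62340033-62340763) held 354, 352 and 301 normalized reads in flox and 385, 345 and 392 in AKO, which overlap (log2 fold change 0.16 ± 0.14 (SE), unadjusted p = 0.288, limma adjusted p = 0.63). Summed over its peaks Hk1 held 644, 882 and 661 normalized reads in flox and 854, 999 and 1123 in AKO in BAT, which overlap (log2 fold change 0.41 ± 0.21 (SE), unadjusted p = 0.0931, limma adjusted p = 0.579). In iWAT the sum was 550.1 ± 51 in flox and 604 ± 25.9 in AKO (mean ± SD, n = 3 each) (log2 fold change 0.14 ± 0.10 (SE), unadjusted p = 0.202, limma adjusted p = 0.548).

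Slc2a1 showed no call in either depot. Its start site peak in BAT (chr4:119108505-119109361) held 509, 463 and 371 normalized reads in flox and 477, 491 and 440.4 in AKO, which overlap (log2 fold change 0.20 ± 0.21 (SE), unadjusted p = 0.381, limma adjusted p = 0.805). In iWAT that peak (chr4:119108498-119109372) held 326, 314 and 279.7 normalized reads in flox and 232, 299 and 241 in AKO, which overlap (log2 fold change -0.26 ± 0.15 (SE), unadjusted p = 0.131, limma adjusted p = 0.47). An intron peak (chr4:119121283-119121589) held 59.2, 84.5 and 62.8 normalized reads in flox and 99.1, 71.9 and 107 in AKO, again with overlap (log2 fold change 0.42 ± 0.21 (SE), unadjusted p = 0.0806, limma adjusted p = 0.394). All 4 BAT peaks had a positive fold change and 3 of 4 iWAT peaks a negative one, and the summed reads were 732 ± 101 in flox and 798 ± 79.4 in AKO (mean ± SD, n = 3 each) for BAT and 469.8 ± 53.9 in flox and 426 ± 38.8 in AKO (mean ± SD, n = 3 each) for iWAT.

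The 3 phosphofructokinase 1 subunits, Pfkl of liver type, Pfkm of muscle type and Pfkp of platelet type, had 16 peaks in BAT, of which none differed without overlap. Of all BAT peaks 8.84% were lower and 8.77% higher without overlap, so a count of 0 among 16 does not set these genes apart. The Pfkl start site peak (chr10:78009117-78010056) held 1469.9, 1156 and 806 normalized reads in flox and 978, 686 and 859 in AKO. Flox replicate 1 was the highest and AKO replicate 2 the lowest, which is also the order of PC1, and the log2 fold change was 0.06 with PC1 and -0.42 without it. One Pfkl peak (chr10:78018840-78019120) was higher at an unadjusted p under 0.05, with 139.5, 79.1 and 76.3 normalized reads in flox and 115, 65.7 and 97.9 in AKO, which overlap, where 3.46% of BAT peaks were higher (log2 fold change 0.53 ± 0.22 (SE), unadjusted p = 0.0435, limma adjusted p = 0.543). The start site peak of Pfkp (chr13:6647166-6649233) held 723, 679 and 633 normalized reads in flox and 686, 691 and 724 in AKO (log2 fold change 0.12 ± 0.17 (SE), unadjusted p = 0.509, limma adjusted p = 0.858). The Pfkm peak over its internal start site (chr15:98108287-98108814) held 273, 274 and 265 normalized reads in flox and 273, 243 and 272 in AKO, with a log2 fold change of 0.04. These groups overlap at both genes.

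In iWAT the peaks of the subunits gave both signs. The Pfkp peak with the smallest p of all members there, 188337 bp upstream of the start site (chr13:6836858-6837370), held 44.9, 41.1 and 32.7 normalized reads in flox and 27.7, 25.1 and 17.1 in AKO, with every AKO aliquot below (log2 fold change -0.76 ± 0.21 (SE), unadjusted p = 0.00858, limma adjusted p = 0.195). An intronic Pfkp peak (chr13:6631822-6632055) held 43.5, 57.8 and 69.7 normalized reads in flox and 94.5, 73.1 and 71.6 in AKO, with every AKO aliquot above (log2 fold change 0.49 ± 0.21 (SE), unadjusted p = 0.0477, limma adjusted p = 0.327), and the fold change was 0.31 without flox replicate 1. Over the start sites, Pfkp (chr13:6647867-6649215) held 292, 351 and 314 normalized reads in flox and 296, 297 and 284 in AKO, and these overlap. Pfkl (chr10:78009208-78009972) held 297, 345 and 307 normalized reads in flox and 345, 332 and 369 in AKO, which overlap (log2 fold change 0.14 ± 0.13 (SE), unadjusted p = 0.316, limma adjusted p = 0.654). Pfkm (chr15:98108311-98108699) held 89.8, 140.1 and 108 normalized reads in flox and 141, 103 and 154 in AKO, which overlap too. Near the upstream start sites of Pfkm (98092589 and 98092644), but over neither, lay a peak assigned to Senp1. It started at 98093003 in iWAT and at 98092897 in BAT. In iWAT it held 145, 156 and 140.3 normalized reads in flox and 118, 127 and 99.4 in AKO. Every AKO aliquot was lower there (log2 fold change -0.36 ± 0.14 (SE), unadjusted p = 0.0381, limma adjusted p = 0.303). In BAT that peak held 381, 296 and 235 normalized reads in flox and 281, 268 and 351 in AKO, which overlap, with a fold change of the other sign (log2 fold change 0.32 ± 0.22 (SE), unadjusted p = 0.196, limma adjusted p = 0.703).

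Pfkfb4, an inducible form of the enzyme, showed no call. Its start site peak, which overlaps the gene Gm38004, held 1153, 968 and 924 normalized reads in flox and 883, 601 and 1014 in AKO in BAT (log2 fold change 0.06 ± 0.20 (SE), unadjusted p = 0.76, limma adjusted p = 0.944). In iWAT that peak (chr9:108991454-108992111) held 361, 334 and 341 normalized reads in flox and 340.0, 305 and 357 in AKO (log2 fold change -0.05 ± 0.13 (SE), unadjusted p = 0.717, limma adjusted p = 0.892), and both overlap. Pfkfb2, the heart form, had 1 peak in each table, in an exon 14427 bp from the nearest start site in BAT, where the gene Gm29427 overlaps. That BAT peak (chr1:130699999-130700297) held 69, 52.5 and 54.3 normalized reads in flox and 97.9, 92.7 and 73.9 in AKO, with every AKO mouse above (log2 fold change 0.66 ± 0.24 (SE), unadjusted p = 0.0267, limma adjusted p = 0.518). In iWAT it held 34.9, 30 and 41.3 normalized reads in flox and 63.4, 25.1 and 43.8 in AKO, which overlap. A peak over the Pfkfb2 start sites at 130715734 and 130715778, each of 1 transcript, is assigned to Yod1. In BAT it held 922, 785 and 783 normalized reads in flox and 812, 734 and 850.1 in AKO (log2 fold change 0.10 ± 0.18 (SE), unadjusted p = 0.588, limma adjusted p = 0.887). The start sites at 130714575 and 130714576, with 3 and 2 transcripts, lie outside that peak. The symbol rule thus takes in an exonic Pfkfb2 site and leaves out this start site peak.

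In iWAT as a whole, 2 of the 41 member peaks were lower and 2 higher at an unadjusted p under 0.05, where 7.42% of iWAT peaks were lower and 7.61% higher, and 2 were lower and 3 higher without overlap, where 10.3% and 10.6% were. limma called 0 of 41 and 0 of 39558 (0%) at an adjusted p under 0.1. DESeq2 called 0 of 41 and 1.18% of tested peaks, edgeR 0 and 4.68%, and limma-trend 0 and 3.64%, each in either direction. The median log2 fold change of the 41 was 0.06, and that of all iWAT peaks was -0.00089, while the member median was -0.01 without flox replicate 3.

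Of the member peaks, 38 pairs overlapped between the tables by at least 1 bp. In 19 pairs the fold changes had the same sign in both depots (50%), against 53.3% of 31936 pairs over all genes. In 11 of the 38 pairs (28.9%) BAT was lower and iWAT higher, against 19.7% of all pairs, and 5 of these were among the 9 Hk2 pairs. For Pfkfb3, 6 of 10 pairs were lower in both, as were 8 of the 38 member pairs (21.1%) and 20.8% of all pairs. No pair had groups that were apart in opposite directions.

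**Figure D4:**
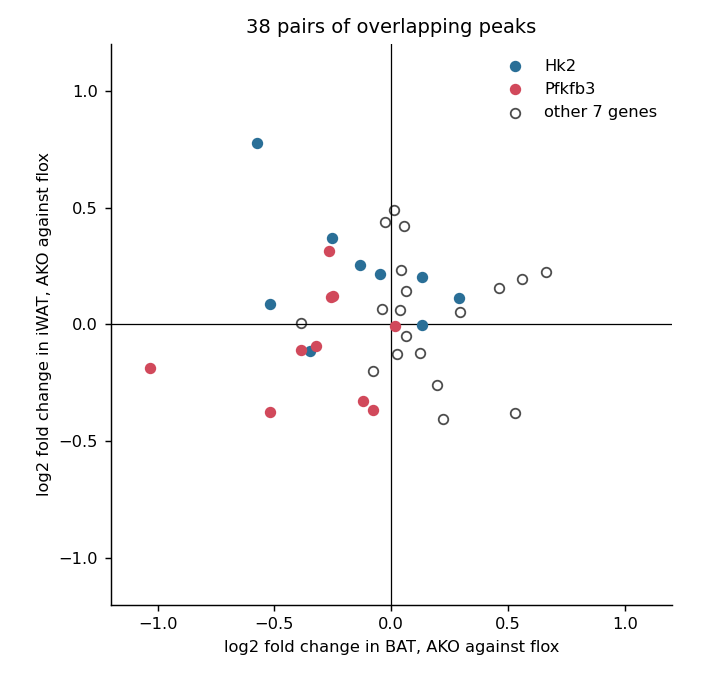
Log2 fold change of AKO against flox in BAT (x axis) and iWAT (y axis) for the 38 pairs of overlapping member peaks. The 9 Hk2 pairs lie mostly above 0 on the y axis, 5 of them with a lower BAT and a higher iWAT value, and the Pfkfb3 pairs lie mostly to the left.

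Likeness was measured over the 12 samples by Pearson's r of log2 summed reads, with each depot centred on its flox mean, among 4409 genes with at least 3 peaks in both tables. The genes most like Pfkfb3 were Eif1a (r = 0.977), A530050N04Rik (0.966) and Pck1 (0.964), and of the members Pfkl came nearest (0.737). The genes most like Hk2 were Uhrf1bp1 (0.944), Tspan18 (0.937) and Ttc28 (0.932), and Pfkfb3 had r = 0.679 with it. For Slc2a1 these were Dirc2 (0.869), Dennd2d (0.864) and Wdtc1 (0.864). The samples share their depot, genotype and depth, so these values describe the libraries only.

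The rest of the pathway was read from 25 genes of glycolysis, lactate and fructose bisphosphatase, with the carrier gene Slc2a4, the kinase genes Pdk1 and Pdk4, and the regulators Hif1a and Mlxipl. Of these 25 genes 22 had peaks, and Eno3, Pfkfb1 and Pgk1 had none in either table. In BAT none of their 93 peaks was called by limma, DESeq2, edgeR or limma-trend, 7 were lower and 1 higher at an unadjusted p under 0.05, where 5.59% of all BAT peaks were lower and 3.46% higher, and the median log2 fold change was -0.01. These counts lie near the shares over all peaks. The smallest p was at Pkm, the pyruvate kinase gene (chr9:59675654-59675881), with 66.4, 104 and 120.3 normalized reads in flox and 55.7, 85 and 67.2 in AKO (log2 fold change -0.95 ± 0.21 (SE), unadjusted p = 0.0023, limma adjusted p = 0.436). The next 2 were also at Pkm, and the one at chr9:59678358-59678606 held 114, 126 and 142 normalized reads in flox and 84.5, 98.5 and 97.9 in AKO, without overlap (log2 fold change -0.60 ± 0.18 (SE), unadjusted p = 0.0129, limma adjusted p = 0.48), whereas the peak at chr9:59672254-59672601 held 113, 137 and 154 normalized reads in flox and 100, 129 and 101 in AKO, with overlap (log2 fold change -0.59 ± 0.17 (SE), unadjusted p = 0.0102, limma adjusted p = 0.474). The fourth, at Tigar (chr6:127106768-127107051), held 166, 104 and 97 normalized reads in flox and 161, 83.1 and 133 in AKO (log2 fold change 0.64 ± 0.20 (SE), unadjusted p = 0.0145, limma adjusted p = 0.482).

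In iWAT none of 57 pathway peaks was called by limma or DESeq2 and 1 was called higher by edgeR and by limma-trend, which called 2.14% and 1.64% of all iWAT peaks higher. At an unadjusted p under 0.05, 1 of the 57 was lower and 7 were higher, where 7.42% of all iWAT peaks were lower and 7.61% higher, and the median log2 fold change was 0.09. The peak called was one of Pdk4, a kinase that restrains pyruvate dehydrogenase, named after its values were seen (chr6:5482119-5482613), and it held 28.5, 10 and 35.3 normalized reads in flox and 49.6, 42.2 and 68.4 in AKO, without overlap (adjusted p = 0.0329 by edgeR and 0.0381 by limma-trend). Fbp1, which reverses the phosphofructokinase step, had the smallest p (chr13:62908182-62908474), with 26.4, 28.9 and 32.7 normalized reads in flox and 63.4, 46.8 and 42.8 in AKO (log2 fold change 0.76 ± 0.18 (SE), unadjusted p = 0.00364, limma adjusted p = 0.166). The peak of Aldoc, an aldolase (chr11:78322961-78323248), held 29.9, 34.5 and 40.5 normalized reads in flox and 47.3, 54.8 and 65.2 in AKO (log2 fold change 0.66 ± 0.18 (SE), unadjusted p = 0.00678, limma adjusted p = 0.186). The peak of Slc16a1, the lactate carrier MCT1 (chr3:104677768-104678071), held 34.9, 43.4 and 38.7 normalized reads in flox and 55.3, 50.2 and 59.9 in AKO (log2 fold change 0.49 ± 0.14 (SE), unadjusted p = 0.0105, limma adjusted p = 0.204). At Hk3 (chr13:55022784-55023060) it was 44.2, 32.2 and 39.6 normalized reads in flox and 16.1, 32 and 16 in AKO, with AKO below (log2 fold change -0.89 ± 0.28 (SE), unadjusted p = 0.0139, limma adjusted p = 0.219). These 4 groups did not overlap.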

How the data were processed

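ATAC-seq of mouse BAT and iWAT was taken from the 2 deposited tables. The signal values deposited by the authors are reads per peak divided by a DESeq2 size factor per sample, after mapping with BWA 0.7.17-r1188 to mm10, MACS2 2.1.1.20160309 peak calls and HOMER gene names. Whole reads were recovered in 100% of values (tolerance 0.01), and 0 columns with values per sample were unused. The authors' own comparison columns (fold changes, p-values) were not used. Each sample merges 2 transposase reactions.

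AKO was compared with flox in each tissue by limma 3.58.1 (lmFit, eBayes) on log2(normalized reads + 1) over all peaks and, apart from that, over summed reads per gene, with Benjamini-Hochberg adjustment (threshold 0.1) and PC1 as a covariate in BAT. A fold change on this scale understates that of low peaks. DESeq2 1.42.0 and edgeR 4.0.16 ran on the recovered reads (R 4.3.3). limma-trend ran on the same log2 values as limma and differs only in a prior variance that follows the mean level of a peak. Peaks that DESeq2 left without an adjusted p were kept out of its counts. Non-overlap means that every sample of 1 genotype lies beyond all of the other.

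Members, lists and tests were chosen with earlier results of these data known. Named in full were the start site peak of each gene within 1000 bp, the 6 peaks of smallest p in each tissue and oppositely moving pairs. Other peaks are named after their values were seen. Positions follow GENCODE vM21, with 1 base added to the deposited starts, and distances run to the nearest start site. Each sample held 62 to 226 reads in its median peak, which limits small peaks. Replicates of 1 genotype differed by more than counting noise (chi-square per peak 2.05 to 12.0). Scripts were tested on simulated data. Replicate numbers were not taken as pairs, and a check that does not settle this for BAT is in the closing section.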

Additional observations from a re-analysis of the deposited data

Results flagged for a closer look

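Hk2 was flagged because its summed reads went in opposite directions in the 2 depots with no overlap in either, lower in every AKO mouse of BAT (log2 fold change -0.23 ± 0.12, SE) and higher in every AKO aliquot of iWAT (0.23 ± 0.08). The BAT value was -0.13 without AKO replicate 1, and -0.13 with a replicate block beside PC1 too. With the block and no PC1 it was -0.20. The difference between the depots was not tested. Only iWAT is given as cold-acclimated and only iWAT was pooled, so depot cannot be told apart from these.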

How the results depend on the processing

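Under the planned and added alternatives the limma count of member peaks and genes stayed at 0 in both tissues. In BAT, 3 member peaks were called by DESeq2, by edgeR, by limma-trend, by DESeq2 without PC1 and by DESeq2 at an adjusted p under 0.05, and 1 member gene by DESeq2, by DESeq2 without PC1 and by DESeq2 at 0.05. In iWAT 1 member gene was called by DESeq2, edgeR and limma-trend. The iWAT median of 0.06 was 0.014 with PC1 as a covariate, which separates the genotypes there, and ran from -0.0098 to 0.086 with 1 aliquot left out. The BAT median of -0.06 ran from -0.12 to -0.022 with 1 mouse left out and was -0.10 under cyclic loess. Of the 16 BAT fold changes followed (14 named peaks and the sums of Pfkfb3 and Hk2), 7 moved by over 1.5 times with the same sign without PC1, 4 with a replicate block, 4 under cyclic loess, 3 when scaled by total reads in peaks and 8 with at least 1 of the mice left out. Of 15 in iWAT (14 named peaks and the sum of Hk2), 7 did so with 1 aliquot left out and 9 with PC1. None moved so far by the other tools, pseudocounts, the filter on low values, TMM factors or recomputed DESeq2 size factors. The following fold changes turned sign, none of them called, and the cause was not tested. In BAT the Pfkl start site peak was -0.42 without PC1 (also with a replicate block) and -0.44 by DESeq2 without PC1, Pfkm -0.043 (also with the block) and -0.038, and Pfkfb4 -0.31, -0.28 and -0.31, besides -0.0031 by cyclic loess. Hk2 was 0.021 under the replicate block. Unless said otherwise, the block in BAT stood beside PC1, and with the block and no PC1 this Hk2 value was -0.32. With 1 mouse left out, these peaks ran from -0.15 to 0.15 for Pfkl, from -0.077 to 0.30 for Slc2a1 and from -0.094 to 0.26 for Pfkfb4. In iWAT with PC1, Pfkp (6631822) was -2.63, Pfkm -0.33, Hk2 (82797343) -0.16 and Pfkfb4 0.83, and Pfkfb4 ran from -0.099 to 0.015 with 1 aliquot left out. The PC1 scores in iWAT were -41.4 to -30.9 in flox and 29.4 to 37.8 in AKO. PC1 and genotype can hardly be told apart there, so the iWAT values with PC1 say little about these peaks.

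Replicate numbers were not taken as pairs. The correlation of the deviations of same-numbered samples was 0.53, 0.10 and -0.24 in BAT and -0.01, -0.06 and -0.08 in iWAT. For samples of different numbers it ran from -0.56 to 0.50 in BAT and from -0.0024 to 0.064 in iWAT. So few values can neither show nor exclude pairing in BAT. With a replicate block limma again called 0 member peaks and 0 member genes in each tissue. Of the Pfkfb3 peaks in BAT, 4 rather than 6 were lower at an unadjusted p under 0.05 with the block beside PC1. Without PC1, 7 were lower with the block and 8 without it. As limma called no member without the block either, the counts of 0 do not decide on pairing. Depth limits the peaks with few reads, such as those of iWAT under 50 normalized reads.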
